A study of Homo sapiens with 2 samples.

Results

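Lysosomes are the acidic compartments in which a cell breaks down proteins, sugars and lipids. Soluble hydrolases do the cutting in the lumen, a proton pump (the V-ATPase) keeps the lumen acidic, and glycosylated membrane proteins line and protect the limiting membrane. Macroautophagy delivers cytoplasm to the lysosome in vesicles that are built by the ATG proteins and fuse with it. The transcription factors TFEB and TFE3 bind an E-box type element near the start of many lysosomal genes and raise their transcription when nutrients are short. Carcinoma cells are known to rely on this system for nutrient supply, and cathepsins that leave the cell can cleave extracellular matrix.

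The 36 genes described here were chosen by name for these functions: 15 hydrolases and other luminal proteins, 8 membrane proteins, 11 autophagy genes and the 2 regulators TFEB and TFE3. A probe set annotated to the gene alone was found for 35 of them. GLB1, lysosomal beta-galactosidase, was annotated on 1 probe set that carried a further symbol, and no value is given for it. The 35 genes had 83 probe sets, of which 73 exceeded the floor (the median of the array) on at least 1 array, and each gene was represented by its brightest measured probe set (highest mean log2 level). All 35 were thus measured, out of 12729 genes measured in all, and 34 of the 35 exceeded the floor on both arrays.

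The study compared Ca9-22 cells, a line from a human gingival carcinoma, stably transduced with a control vector that was empty or one that carries RUNX2, a runt-domain transcription factor. Both groups had been under blasticidin selection for 2 weeks, and whether the transduced cells were a clone or a pool is not given in the sources used here. Total RNA was hybridised to 1 Affymetrix array per group. Without replicates the groups could not be tested against each other, and a pair of arrays limits how precise any value can be. The comparison asked how transcript levels differ with ectopic RUNX2.

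The probe sets of RUNX2 itself disagreed. On the empty vector array and the array labelled RUNX2 they read 204 and 854 in one probe set, 102 and 353 in another, and 1746 and 433 in a further one. Its values do not tell which array carries its vector, and every direction below rests on the labels. Squamous epithelial markers were present, where all 7 of 10 that had a probe set of their own exceeded the floor, with summed levels of 35566 (empty vector) and 44850 (labelled RUNX2). SFN and KRT5 differed most in level. On the log2 scale the ratios ran from -0.24 for PKP1 to 1.43 for KRT14, with DSG3 (-0.08) also below 0 and CDH1 at 0.01. Of 10 macrophage and leukocyte markers, 6 lay under the floor on both arrays, PTPRC, CD163, CD14 and TYROBP among them, and the summed level of the list was 1152 and 1395. LCP1 was measured in that list, at 775 and 1073. Of 8 fibroblast markers 6 were under the floor, COL1A2 and COL3A1 among them, while COL1A1 was measured at 1937 and 1553, with all 5 of its probe sets between -0.39 and -0.20 on the log2 scale (list sums of 2179 and 1768). Under the floor were also 3 of 5 endothelial markers (list sums of 209 and 159). The part of these markers in the results below was not tested. In bulk RNA, fewer cells of a kind and less RNA per cell cannot be told apart.

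Because TFEB acts through an E-box, the promoters of the members were searched for CACGTG and for the longer TFEB-type core TCACGTG, on both strands. Every match to the longer motif contains the shorter one. Windows ran from 250 bases before to 50 bases after the RefSeq start (GRCh38.p14), and 30 members had one. CTSB, HEXA, PSAP, LAMP2, ATP6V1A and ATP6V1H had none. CACGTG was present in 8 of the 30 windows (26.7%), against 7.43% of all 27305 windows and 10.1% of the 10289 windows of measured genes. TCACGTG was present in 7 (23.3%), against 3.82% and 5.76%. This element was described in the literature on promoters of lysosomal genes, so its share among them is no independent evidence. The 7 members with TCACGTG were CTSA, CTSD, GAA and NEU1 among the luminal proteins and LAMP1, MCOLN1 and ATP6V0D1 among the membrane proteins. CD63 held CACGTG without the flanking T, and the 11 autophagy genes, TFEB and TFE3 held neither. The stretches that carry these matches are printed 5′ to 3′ on the gene's strand, from 20 bases before the outermost match to the base before the start, with each CACGTG in capitals.
LAMP1 (chr13:113297027-113297238, + strand): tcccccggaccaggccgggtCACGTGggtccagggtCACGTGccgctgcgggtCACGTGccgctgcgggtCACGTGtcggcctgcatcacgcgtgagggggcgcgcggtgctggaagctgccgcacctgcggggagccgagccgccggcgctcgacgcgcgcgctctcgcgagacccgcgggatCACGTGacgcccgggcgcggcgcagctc
MCOLN1 (chr19:7522563-7522623, + strand): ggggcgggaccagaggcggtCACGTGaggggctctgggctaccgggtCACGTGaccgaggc
ATP6V0D1 (chr16:67481158-67481236, - strand): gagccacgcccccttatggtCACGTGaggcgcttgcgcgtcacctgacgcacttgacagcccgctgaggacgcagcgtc
CTSA (chr20:45891273-45891334, + strand): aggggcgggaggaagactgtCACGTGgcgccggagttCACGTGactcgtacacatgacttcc
CTSD (chr11:1763928-1763994, - strand): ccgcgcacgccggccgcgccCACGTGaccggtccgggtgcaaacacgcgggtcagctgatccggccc
GAA (chr17:80101485-80101580, + strand): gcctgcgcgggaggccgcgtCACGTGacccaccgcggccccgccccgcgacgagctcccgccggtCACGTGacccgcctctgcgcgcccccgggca
NEU1 (chr6:31862822-31862967, - strand): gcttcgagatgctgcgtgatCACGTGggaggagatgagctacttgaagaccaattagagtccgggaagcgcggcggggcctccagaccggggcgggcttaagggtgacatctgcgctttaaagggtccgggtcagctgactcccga
LAMP1 had 5 matches in the printed stretch and 6 in its window, and GAA, MCOLN1 and CTSA had 2 each.

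None of the 35 members differed by 2-fold in either direction between the arrays. Of all measured genes 2.88% did, 1.41% being higher by that factor and 1.47% lower in cells labelled RUNX2. At 1.5-fold, 3 members were higher (TFEB, ATP6V0D1 and CTSC), where 5.77% of all genes were, and 2 were lower (NPC2 and ULK1), where 6.86% were. Either way, 5 of 35 members passed 1.5-fold, against 12.6% of all genes, which is near this background. Log2 ratios of the members ran from -0.68 to 0.87 with a median of 0.03, and the median of all 12729 genes was -0.06. The members just inside 1.5-fold were CTSC (1.54-fold higher) and ULK1 (1.57-fold lower), and the nearest outside it were ATG5 (1.43-fold higher) and MCOLN1 (1.42-fold higher). When the arrays were scaled to equal medians instead, ATG5 (0.61 on the log2 scale) and MCOLN1 (0.59) passed 1.5-fold and NPC2 (-0.58) and ULK1 (-0.56) no longer did, so that 5 members were higher and 0 lower. Under that scaling 8.19% of all genes passed 1.5-fold upwards and 4.74% downwards.

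**Figure D1:**
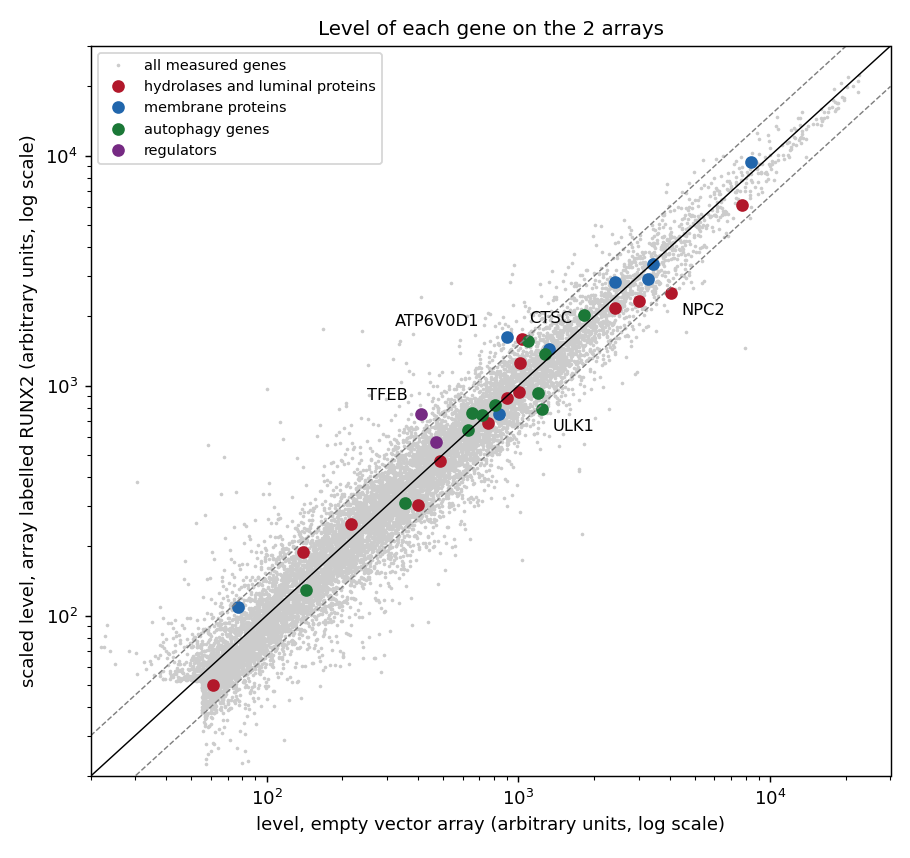
Scaled level of each measured gene on the array labelled RUNX2 against its level on the empty vector array, both in arbitrary units on log axes, with the members coloured by class and the other genes in grey. The solid line marks equal levels and the dashed lines 1.5-fold; TFEB, ATP6V0D1 and CTSC lie above the upper line and NPC2 and ULK1 below the lower one.

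Of the regulators, TFEB passed 1.5-fold and TFE3 did not. TFEB, the main activator of lysosomal and autophagy genes, read 412 in cells with the empty vector and 753 in those labelled RUNX2, which is 1.83-fold higher. Its other probe set read 222 and 295, a log2 ratio of 0.41 beside 0.87. Both probe sets of TFEB pointed the same way, with unequal size. TFE3, its close relative, read 472 and 566 (log2 ratio 0.26), and its other measured probe set gave 0.13. With ratios averaged over probe sets TFEB had 0.64, still past 1.5-fold. MITF, a further member of this family, had a log2 ratio of 0.32 at levels of 120 and 150.

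Among the soluble hydrolases and luminal proteins, 10 of 14 had a log2 ratio below 0, and the median was -0.11. Over all measured genes, 57.4% were below 0. The largest difference was in NPC2, the luminal carrier that hands cholesterol to NPC1. Its single probe set read 4024 with the empty vector and 2517 in the array labelled RUNX2, which is 1.60-fold lower. PSAP, the precursor of the saposins that help sphingolipid hydrolases reach their lipids, read 7750 and 6094 (log2 ratio -0.35), and its other probe set gave -0.32. These luminal helper proteins, which cut no substrate themselves, both lay below 0.

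The 8 cathepsins, which are proteases and carboxypeptidases, went both ways, from -0.36 to 0.62 with a median of -0.11. Without the _x_at and _s_at probe sets 5 of them were measured, and their median was 0.30, the opposite sign. CTSB, a cysteine protease often found in excess in carcinomas, read 3019 and 2344, a log2 ratio of -0.36. All 5 of its probe sets lay below 0, from -0.69 to -0.25. CTSC, which activates serine proteases of immune cells, read 1031 and 1588 in its highest probe set, 1.54-fold higher. The other probe sets of CTSC gave 0.15, -0.14 and 0.20, so the value past 1.5-fold rests on 1 of 4 probe sets, and their mean was 0.21.

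CTSD, the aspartic protease of the lysosome, read 139 and 189 (log2 ratio 0.44), and CTSA, which protects beta-galactosidase and sialidase in a complex, read 1018 and 1257 (0.30). Both had a single probe set. The TFEB-type core shown above stands in both promoters, and also in those of the luminal members NEU1 (-0.40) and GAA (-0.06). The cysteine proteases CTSL (2418 and 2185) and CTSV (1005 and 940), which are close paralogs, had log2 ratios of -0.15 and -0.10. CTSZ, a carboxypeptidase, had -0.13 and -0.14 in its 2 probe sets. CTSH, an aminopeptidase, read 61.1 with the empty vector and lay under the floor on the other array, at least 1.18-fold lower.

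Among the glycosidases, log2 ratios ran from -0.40 to 0.21. NEU1, the lysosomal sialidase, had the lowest and read 400 and 303, a log2 ratio of -0.40. GLA, alpha-galactosidase A, read 216 and 250 (0.21). GAA, the enzyme that digests glycogen in the lysosome, read 489 and 470 (-0.06). HEXA, a subunit of beta-hexosaminidase, read 902 and 879 in the probe set that stood for it (-0.04), while others gave 0.08 and 0.42. None of the 4 passed 1.5-fold.

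**Figure D2:**
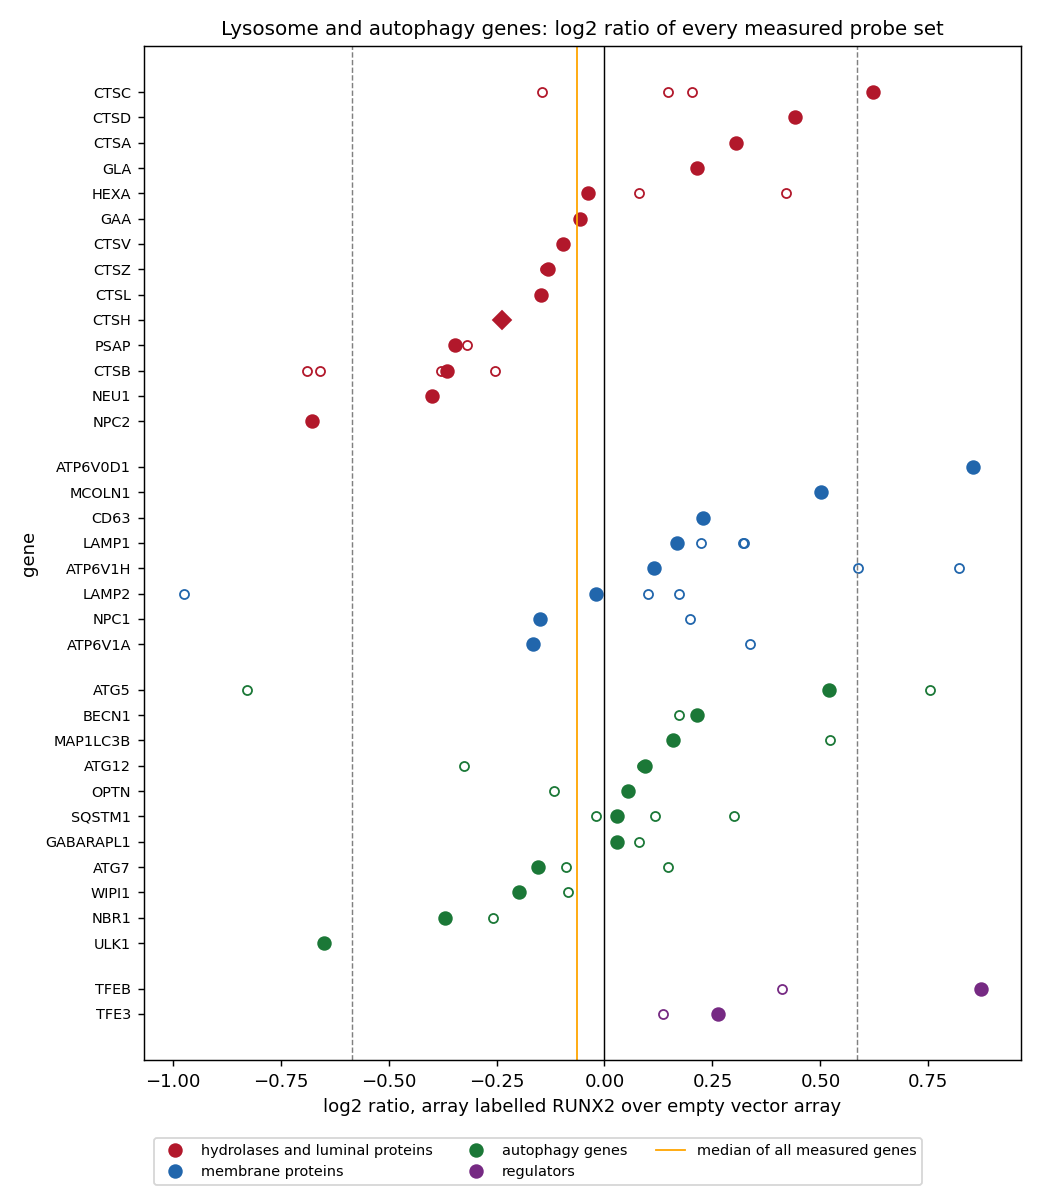
Log2 ratio of the array labelled RUNX2 over the empty vector array for every measured probe set of the members, grouped by class. Filled symbols are the probe sets that stand for their gene (a diamond where the ratio is a bound), open circles the other probe sets, dashed lines 1.5-fold and the orange line the median of all measured genes at -0.06; the open circles of LAMP2 and ATG5 at the far left stand well away from the filled ones.

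Of the 8 membrane proteins, 5 had a log2 ratio above 0, and their median was 0.14. Over all measured genes, 42.6% were above 0. ATP6V0D1, a stalk subunit of the membrane sector of the V-ATPase, read 903 and 1631 in its single probe set, 1.81-fold higher. MCOLN1, the lysosomal calcium release channel, read 76.8 and 109 (log2 ratio 0.50), not far above the floor of 55.3 on the empty vector array. CD63, a tetraspanin of late endosomes, read 2409 and 2823 (0.23).

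The abundant lysosomal glycoprotein LAMP1 read 8386 and 9425 (log2 ratio 0.17), and its 4 probe sets all lay above 0, up to 0.32. LAMP2, its partner in the limiting membrane and in chaperone-mediated autophagy, read 3429 and 3383 (-0.02). Of its other probe sets, 2 gave 0.17 and 0.10, whereas the last read 1223 and 623, 1.96-fold lower. LAMP2 thus held both near-equal values and the lowest ratio of all member probe sets. Which transcripts of the gene each probe set matches was not determined here, for LAMP2 or any other member. NPC1, the membrane protein that exports cholesterol, read 836 and 755 (-0.15). Its other measured probe set, whose empty vector value lay under the floor, gave a bound of at least 0.20, the opposite sign.

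The subunits of the catalytic V-ATPase sector differed less than ATP6V0D1 in the probe sets that stood for them. ATP6V1A, which binds and hydrolyses ATP, read 3260 and 2904 (log2 ratio -0.17), and its other probe set gave 0.34. ATP6V1H, a regulatory subunit, read 1325 and 1435 (0.12), while another probe set read 96.7 and 171 (1.77-fold higher) and a further one, whose empty vector value lay under the floor, gave a bound of at least 0.59 on the log2 scale. Among the 14 other V-ATPase and accessory genes, 13 were measured, 11 of them above 0 and 2 below, with a median of 0.18. ATP6V1C1 (589 and 876, log2 ratio 0.57), ATP6V1D (1124 and 1535, 0.45) and ATP6V0E1 (4409 and 5945, 0.43) had the highest ratios, and all 7 measured probe sets of ATP6V0E1 lay between 0.23 and 0.76. ATP6AP2, an accessory protein also known as the prorenin receptor, was lowest at -0.29. With the 3 members included, 13 of 16 measured V-ATPase genes lay above 0, where 42.6% of all measured genes did. The single gene past 1.5-fold was ATP6V0D1, and the median of the 16 was 0.16. Relative to the median of all genes it lay at 0.22, and at 0.19 with the floor at the 75th percentile.

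Autophagy genes had a median log2 ratio of 0.03, with 7 of 11 above 0, against 42.6% of all measured genes. With ratios averaged over probe sets, 5 lay above 0 and 6 below. ULK1, the kinase that starts autophagosome formation, read 1236 and 788, 1.57-fold lower, in its single probe set. BECN1, a subunit of the lipid kinase complex that acts next, read 655 and 761 (log2 ratio 0.21), with 0.17 in its other measured probe set. WIPI1, which binds the lipid this complex makes, read 353 and 308 (-0.20), with -0.08 in the other. The earliest steps thus held both the lowest ratio of the class and values near 0.

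The ATG conjugation proteins attach LC3 family proteins to the growing membrane. ATG5 read 1092 and 1564 in the probe set that stood for it, a log2 ratio of 0.52, and 355 and 600 in another (0.75). A further ATG5 probe set read 566 and 319, 1.77-fold lower, so the probe sets of this gene split in direction and their mean was 0.15. ATG12, which is joined to ATG5, read 1280 and 1366 (0.09), with 0.09 and -0.33 in its others. ATG7, the activating enzyme of both conjugation reactions, read 144 and 129 (-0.15), with -0.09 and 0.15 in its others. Among the conjugated proteins, MAP1LC3B (LC3B) read 1818 and 2028 (0.16) and 942 and 1353 (0.52), and GABARAPL1 read 629 and 642 (0.03).

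The cargo receptors link ubiquitinated material to LC3. SQSTM1 (p62) read 807 and 823, a log2 ratio of 0.03, and its other measured probe sets lay from -0.02 to 0.30. OPTN, optineurin, read 718 and 745 (0.06), with -0.12 in the other. NBR1 read 1199 and 929 (-0.37), with -0.26 in its other measured probe set. NBR1 was the receptor with the widest difference, and it did not reach 1.5-fold.

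Set side by side, the hydrolase median was 0.26 below the membrane protein median on the log2 scale and 0.14 below the autophagy median, and the membrane median was 0.11 above the autophagy median. The ranges of the classes overlapped throughout, from -0.68 to 0.62 for luminal proteins, -0.17 to 0.85 for membrane proteins and -0.65 to 0.52 for autophagy genes. Between probe sets of the same gene, log2 ratios scattered with an SD of 0.29 (6165 genes), and of 0.32 in the 22 members with more than 1 measured probe set. This scatter lies within a single pair of arrays and does not stand in for replicates. The ratios of 13 members lay farther from 0 than 0.29. The share of all genes that did so was not counted, so this number does not set the members apart from other genes. The ratios of all measured genes had an SD of 0.42 and those of the members 0.37. Of the 22 members with more than 1 measured probe set, 12 had all on the same side of 0 (7 above and 5 below) and 10 did not. This too was not counted over all genes, and is given without a comparison. The hydrolase median was 0.012 without the _x_at and _s_at probe sets, which can match several transcripts, and the autophagy median was -0.03 with ratios averaged over probe sets, so that neither sign held throughout. The membrane median stayed above 0, from 0.12 to 0.24, under 10 other ways of scaling, setting the floor or choosing probe sets.

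**Figure D3:**
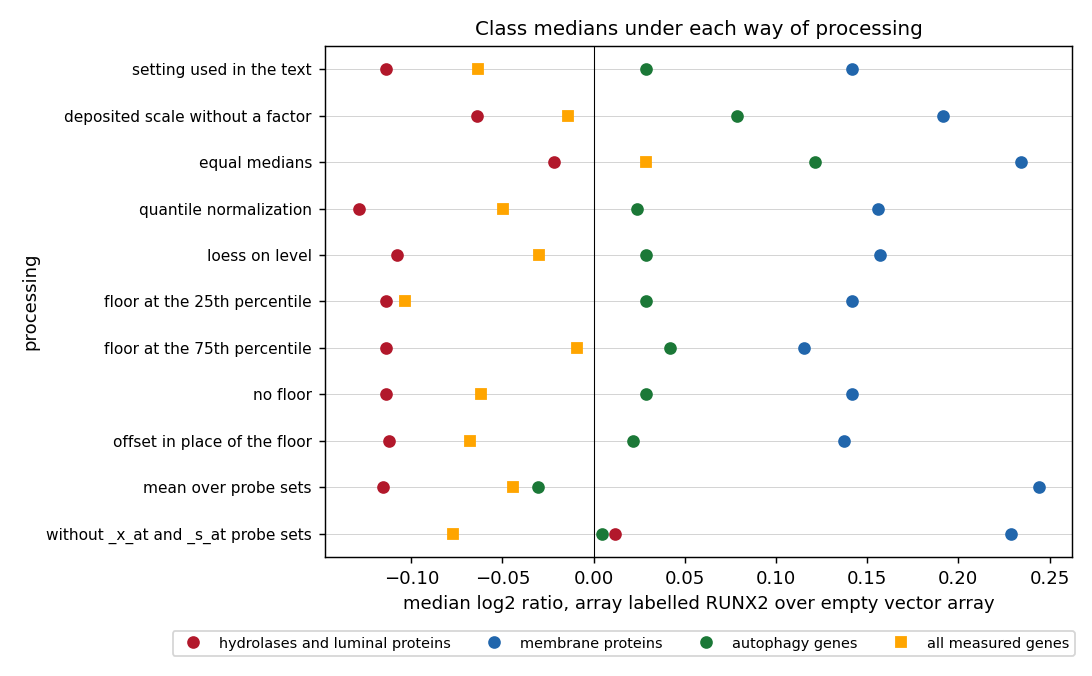
Median log2 ratio of the luminal proteins, membrane proteins, autophagy genes and all measured genes under the processing used in the text and 10 alternatives. The membrane proteins stay between 0.12 and 0.24, whereas the luminal proteins reach 0.012 without the _x_at and _s_at probe sets and the autophagy genes -0.03 with the mean over probe sets.

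The 7 members with TCACGTG in their promoter had a median log2 ratio of 0.30, with 5 above 0 (ATP6V0D1, MCOLN1, CTSD, CTSA and LAMP1) and 2 below (GAA and NEU1). The 22 measured members with a window and no such match had a median of 0.03. Over all measured genes, those with the motif had a median of -0.02 (593 genes, 47.9% above 0) and those without it -0.06 (9696 genes, 43.4% above 0). The letters TGTGGT, a core of the RUNX binding motif that was searched after the values were known, stood in 2 of the 30 member windows, those of ATG7 and BECN1. That is 6.67%, against 9.28% of the windows of measured genes and 13.1% of all windows. A match describes the letters in this window and is not a binding site.

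Other genes of the pathway were counted in the same way. Of all measured genes, 5.77% were at least 1.5-fold higher, 6.86% at least 1.5-fold lower, and 42.6% lay above 0. Of 32 other hydrolases, 23 were measured, with a median log2 ratio of -0.16 and 15 below 0. At 1.5-fold, 1 was higher and 1 lower. The higher one was MANBA, beta-mannosidase (526 and 814, 1.55-fold), and the lower one IDS, iduronate sulfatase (2657 and 1647, 1.61-fold), whose 7 measured probe sets ran from -0.69 to 0.44 and averaged -0.07. GUSB, beta-glucuronidase, read 1282 and 901 (-0.51) and the bone cathepsin CTSK 211 and 144 (-0.55). On the higher side, ACP2 read 194 and 286 (0.56) and PLA2G15 84.9 and 107 (0.34). Relative to the median of all genes, the median of the other hydrolases lay at -0.10 and that of the luminal members at -0.05. Without the _x_at and _s_at probe sets these were -0.09 and 0.09. A scale factor shifts a list and all genes alike, and every way of processing used the same 2 arrays. The ways of processing are therefore no repeats of this result. Of 15 other measured membrane proteins 0 were higher and 2 were lower at 1.5-fold, SIDT2 (1.69-fold) and the sialic acid exporter SLC17A5 (1.51-fold), around a median of 0.02. Their other probe sets gave -0.29 and -0.27. With ratios averaged over probe sets neither passed 1.5-fold (-0.52 and -0.43), and with equal medians 2 genes of this list were higher and 1 lower. In this list 8 genes lay above 0, and CTNS (0.57), LAMP3 (0.50) and OSTM1 (0.42) had the highest ratios. The probe sets of OSTM1 ran from -0.29 to 0.42.

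Genes that sort enzymes to the lysosome had a median log2 ratio of 0.19, with 13 of 17 measured above 0 and 0 past 1.5-fold. The shares over all genes were 42.6% and 12.6%. Without the _x_at and _s_at probe sets the median of the sorting genes was 0.06, with 7 of 10 above 0. With the floor at the 75th percentile it was 0.12. M6PR, a mannose 6-phosphate receptor that carries new hydrolases from the Golgi, read 852 and 1124 (0.40). The larger receptor IGF2R read 1236 and 1445 (0.23), and GNPTAB, the enzyme that starts the mannose 6-phosphate tag, read 1024 and 1234 (0.27). VPS18 (0.49) and VPS29 (0.48) were highest, with -0.14 in the other probe set of VPS29, and VPS11 was lowest (-0.27). The cystatins, which inhibit cysteine cathepsins, had 4 of 6 measured, from -0.02 for CST3 to 0.12 for CSTA.

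The 35 other measured autophagy genes had a median of 0.00, with 1 higher and 1 lower at 1.5-fold. The mitophagy receptor BNIP3, also a hypoxia target, read 260 and 473, 1.82-fold higher, with a log2 ratio of 0.68 in its other probe set. RB1CC1 (FIP200), a scaffold of the ULK1 complex, read 1798 and 1088, 1.65-fold lower, with -0.37 in its other probe set. Of the same complex, ATG13 had -0.35 and ATG101 had 0.58, and ULK2 lay under the floor on both arrays. The kinase complex mTORC1 holds TFEB and ULK1 in check when nutrients are plentiful. Genes of mTORC1 and nutrient sensing, a list that holds inhibitors of mTORC1 as well as its subunits, had a median of -0.03 over 25 measured genes. DEPTOR, an inhibitor of mTOR, was the 1 gene of this list past 1.5-fold. It read 114 and 56.3, 2.03-fold lower, and with the level on the array labelled RUNX2 near the floor of 51.8 it reached 2-fold in 5 of 10 ways of processing. RRAGB had -0.47 and MLST8 -0.44, while AKT1S1 had 0.49, FLCN 0.48 and SESN2 0.40. In FLCN, which helps mTORC1 to hold back TFEB, the probe sets ran from -0.51 to 0.48.

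**Figure D4:**
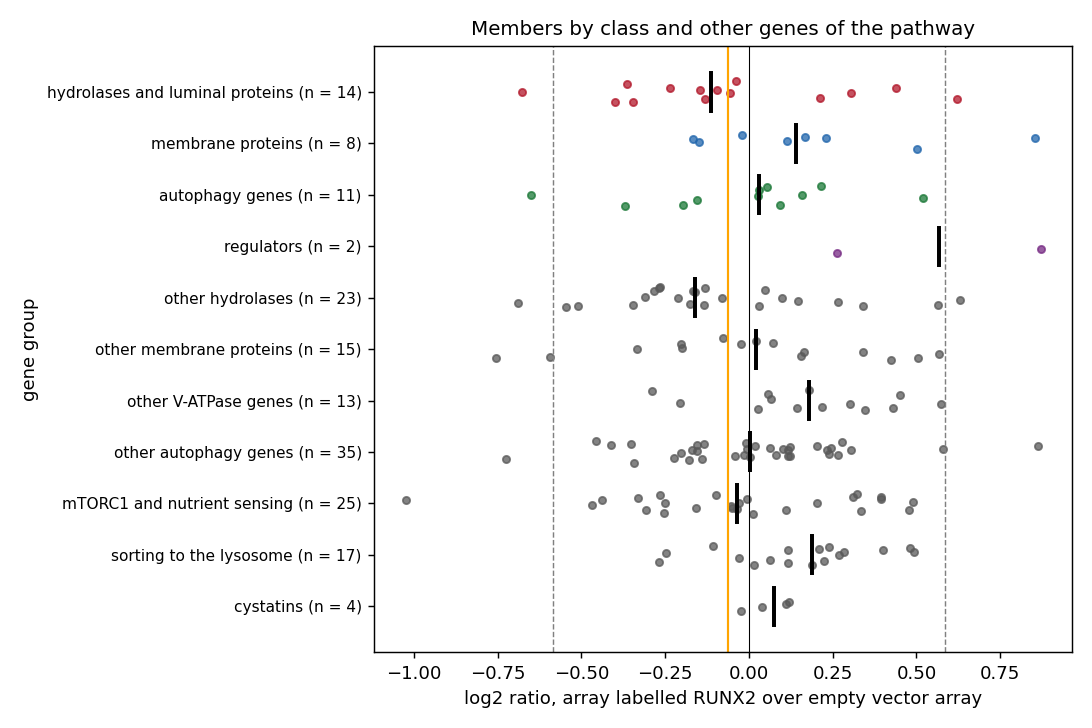
Log2 ratio of the array labelled RUNX2 over the empty vector array for the members by class (coloured) and the other genes of the pathway (grey), 1 point per measured gene. Black bars are group medians, the orange line is the median of all measured genes at -0.06 and dashed lines mark 1.5-fold; the other V-ATPase genes and the sorting genes centre on 0.18 and 0.19, the other hydrolases on -0.16.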

How the data were processed

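Each array's deposited values are intensities of 54675 probe sets, linear and in arbitrary units. The submitters' processing notes name MAS5, and its version and scaling target are not given in the sources used here. The deposited columns had medians of 55.3 (empty vector) and 53.7 (labelled RUNX2). The intensities are taken as levels of labelled RNA per probe set. Levels of different probe sets are not comparable. They were ranked to choose a gene's probe set and the members named, and summed over each marker list, and a sum is read only between the arrays.

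Samples were grouped by title. After removal of 62 control probe sets, values labelled RUNX2 were scaled by 0.966, which equalised the 2% trimmed means (199 and 206). Floors were the array medians, 55.3 and, after scaling, 51.8. A value under its floor was set to the floor, which makes the ratio a bound. Symbols came from the platform annotation (41091 probe sets with 1 symbol, 1801 with several, 11721 with none). For 41037 of those with 1 symbol, the RefSeq symbol (GRCh38.p14) of the same Entrez ID was used, whether or not it differed. Promoter windows are RefSeq's. Ratios were computed in Python 3.11.15 with numpy 2.4.6 and pandas 2.3.3, and the script was tested on simulated data.

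The members, lists and rules were chosen with earlier results of these data known. Both levels are given for members past 1.5-fold, class extremes, the 3 members with the highest levels and members whose probe sets differ by over 0.58, and the text adds further members. Of the other lists, genes past 2-fold and up to 3 of the widest ratios each way were to be named, and the text names a choice of these with genes of known role added after their values were seen. Alternatives were other scalings (none, equal medians, quantile, loess with span 0.4), floors at the 25th or 75th percentile, no floor, an offset, the mean over probe sets, and leaving out _x_at and _s_at probe sets. Classes without PSAP and NPC2 or without V-ATPase subunits were also tried. The median over probe sets, cathepsins alone and pooled V-ATPase genes were added after seeing the data.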

Additional observations from a re-analysis of the deposited data

How the results depend on the processing

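No member passed 2-fold under any of the 11 alternatives run for that count. With equal medians the median log2 ratio was -0.022 for hydrolases and luminal proteins and 0.12 for autophagy genes, and 5 members passed 1.5-fold upwards and 0 downwards, in place of 3 and 2. The shift is that of the scaling itself, since the median of all genes moved by 0.09. That median also depended on the floor, at -0.10 with the 25th percentile and -0.009 with the 75th, in place of -0.06. At the 75th percentile, medians relative to all genes were 0.13 (sorting genes), 0.12 (membrane members) and 0.05 (autophagy members). With the floor used in the text these were 0.25, 0.21 and 0.09. For the luminal members the relative median went from -0.05 to -0.10. With ratios averaged over probe sets, the membrane median lay 0.27 above the autophagy median. Without _x_at and _s_at probe sets, which left 25 members, the hydrolase median was 0.012 and lay 0.0072 above the autophagy median. With the median over probe sets, added after seeing the data, the membrane median was 0.25. The causes of these last changes were not tested. Among single members, CTSC (0.21), ATP6V1H (0.51) and ATG5 (0.15) moved by more than the SD of 0.29 between probe sets when ratios were averaged. ATP6V1H (0.59) and ATG7 (0.15) did so without _x_at and _s_at probe sets. MCOLN1 and CTSH read close to the floor, which limits their ratios. No paired analysis was possible because each group holds 1 array.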

Other observations

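Lists of neighbouring functions were added after the members' values were seen, and are given as values with no test. Beside them, 42.6% of all measured genes lay above 0 and 12.6% passed 1.5-fold either way. Of 25 ESCRT genes, whose products sort cargo into the vesicles of late endosomes, 22 were measured, with a median log2 ratio of 0.06 and 13 above 0. VPS36 was the 1 gene past 1.5-fold, from 857 to 567 (1.51-fold lower), and VPS37A had 0.57, with -0.07 in its other measured probe set. Of 16 measured endosomal RAB GTPases and tethers, 12 lay above 0, with a median of 0.07. RAB32, which acts on lysosome-related organelles, read 386 and 696, 1.80-fold higher, with 0.43 in its other probe set. EEA1, the tether of early endosomes, had -0.44, with 0.06 in its other probe set.

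Genes for the phosphatase, exportin, kinases and 14-3-3 proteins that move TFEB between cytoplasm and nucleus had 15 of 17 measured, none past 1.5-fold, from -0.33 for GSK3A to 0.28 for YWHAB. Among galectins and membrane repair genes, TRIM16, a ubiquitin ligase that acts with galectin-3 on damaged lysosomes, read 358 and 670, 1.87-fold higher in its single probe set. LGALS3, galectin-3 itself, read 2098 and 1446, a log2 ratio of -0.54, and ANXA1 had 0.47, with 0.85 in its other probe set. The median of the 11 measured genes of this list was -0.00.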
